A study of Mus musculus with 4 samples.

Results

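The *Slc22* genes of mouse chromosome 19 encode organic anion transporters. The 9 genes *Slc22a6*, *Slc22a8*, *Slc22a12*, *Slc22a19*, *Slc22a20*, *Slc22a26*, *Slc22a27*, *Slc22a28* and *Slc22a30* were taken by symbol from the mm9 annotation. They are 9 of 724 protein-coding genes of the chromosome and of 22367 in all. The rule that lists them uses no DamID value, but the set was chosen with earlier results of these data known. Their spans and exons were placed in the lists of lamina-associated domains (LADs) of WT and *Tm7sf2*-KO hepatocytes, and in the lists of differential regions (DRs) that lie in a LAD of only 1 genotype. *Slc22a29*, a further family member that lies among them, is not in the set and is described with the neighboring genes.

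In DamID, a bacterial Dam methylase joined to lamin B1 methylates GATC sites of DNA that comes close to the nuclear envelope (NE), and unfused Dam serves as the control. The 4 libraries were WT LaminB1-Dam, WT Dam, KO LaminB1-Dam and KO Dam. WT was *Tm7sf2*+/+ and KO was *Tm7sf2*-/-, a knockout of an NE transmembrane protein (NET47), both on a C57BL/6 background. Hepatocytes were isolated from mice aged 12 to 16 weeks, transduced with a lentivirus for either construct, and the DNA of 4 mice was pooled in each library. The cells were measured in culture, and the signal comes from those that took up the virus, which by the study's account were a minority. With 1 library pair per genotype there was no replicate, and every difference below is a description of 2 lists without a test. The lists hold positions but no expression values, so the hepatocyte label could not be checked against markers, and no read number per border. By the study's account the KO was sequenced less deeply than WT, and the part of this difference in the LAD calls was not tested.

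SLC22 proteins are solute carriers of the plasma membrane that move organic anions, cations and zwitterions into or out of cells. The anion transporters among them take up drugs, toxins, urate and metabolites, and are best known from the kidney tubule and, for some members, from liver and olfactory tissue. Many of their genes lie side by side in the genome, as copies that arose by duplication. DNA in LADs is, as a rule, poor in genes and weakly transcribed.

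The members fell into 3 places on chromosome 19, all given here in mm9. *Slc22a20* lay alone at chr19:5970234-5986143 and *Slc22a12* lay alone at chr19:6535845-6543019. The other 7 formed a block of 955 kb, chr19:7747551-8702789, in the order *Slc22a19*, *Slc22a26*, *Slc22a27*, *Slc22a28*, *Slc22a30*, *Slc22a8* and *Slc22a6*. The first 5 genes of the block are on the minus strand, so that their 3′ ends face the start of the chromosome, and *Slc22a8* and *Slc22a6* are on the plus strand. *Tm7sf2*, the gene removed in the KO, is on the same chromosome at chr19:6062821-6068373. It lay 76.7 kb from *Slc22a20*, 467 kb from *Slc22a12* and 1679 kb from *Slc22a19*. *Tm7sf2* itself overlapped no DR and was interior in both genotypes.

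**Figure D1:**
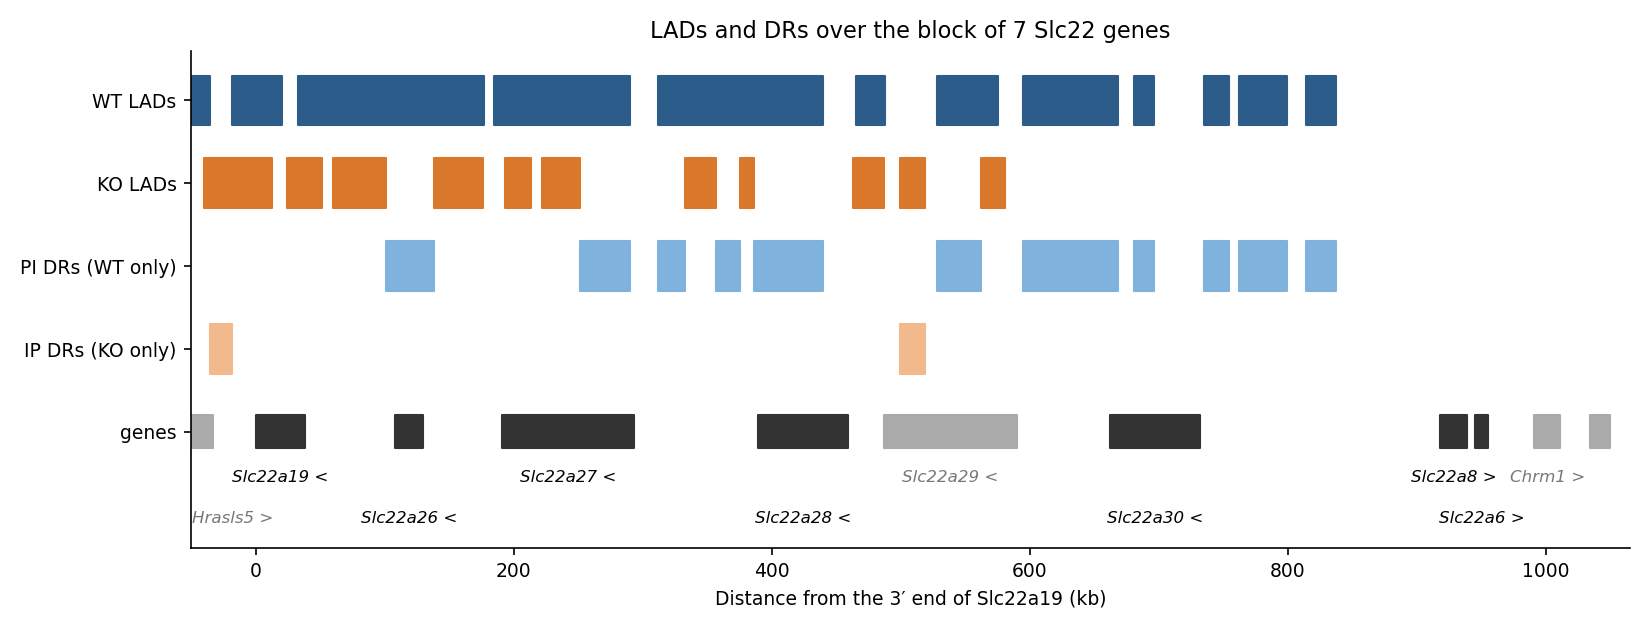
The horizontal axis gives the distance in kb from the 3′ end of *Slc22a19*. Bars show WT LADs, KO LADs, PI DRs (in LADs of WT only), IP DRs (in LADs of KO only) and genes, with members in black, other genes in gray, and < or > for the strand. KO LADs stop 581 kb into the block, WT LADs continue to 837 kb, and neither list reaches *Slc22a8* or *Slc22a6*.

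The genes are close relatives, which matters for reads that must be placed in 1 copy. By their longest annotated coding sequences, *Slc22a28* and *Slc22a30* were 98.8% identical (1636 of 1656 aligned bases) and *Slc22a27* and *Slc22a28* 91.5%. *Slc22a19* and *Slc22a26* were 75.3% identical. *Slc22a8* and *Slc22a6* were 60.2% identical to each other and at most 54.4% identical to any of the 5 genes before them in the block. The gene structure was shared. In *Slc22a12*, *Slc22a26*, *Slc22a28*, *Slc22a30*, *Slc22a8* and *Slc22a6* the 8 inner exons had the same lengths as in *Slc22a19*, and *Slc22a20* and *Slc22a27* differed in 1 of the 8.

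The 250 bases before the RefSeq (GRCm38.p6) transcription start are shown for 4 members that are not all in the same LAD state there. They run 5′ to 3′ along the gene, with GATC in capitals because DamID reads only these sites. RefSeq starts can differ from the annotated starts used for distances, as for *Slc22a8* (promoter at chr19:8667422-8667721, annotated start 8665744). All 9 members had a RefSeq promoter of 300 bases that matched mm9 chromosome 19 exactly once, and the stretches shown match the minus strand at chr19:7785801-7786050, chr19:7877158-7877407, chr19:8206473-8206722 and chr19:8479596-8479845.
Slc22a19: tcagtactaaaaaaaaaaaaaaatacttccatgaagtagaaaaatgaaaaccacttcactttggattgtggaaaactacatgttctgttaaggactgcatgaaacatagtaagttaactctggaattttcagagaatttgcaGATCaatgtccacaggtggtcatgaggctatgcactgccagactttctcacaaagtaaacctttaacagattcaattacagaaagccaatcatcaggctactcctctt
Slc22a26: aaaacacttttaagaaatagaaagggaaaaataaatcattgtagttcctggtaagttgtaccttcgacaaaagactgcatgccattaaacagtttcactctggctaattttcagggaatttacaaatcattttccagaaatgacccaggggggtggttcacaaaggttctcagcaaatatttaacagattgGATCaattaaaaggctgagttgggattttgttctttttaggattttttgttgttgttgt
Slc22a28: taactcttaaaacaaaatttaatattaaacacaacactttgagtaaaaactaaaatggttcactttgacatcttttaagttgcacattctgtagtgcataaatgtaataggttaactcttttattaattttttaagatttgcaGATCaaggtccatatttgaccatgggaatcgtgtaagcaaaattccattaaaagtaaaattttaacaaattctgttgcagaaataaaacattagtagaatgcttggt
Slc22a30: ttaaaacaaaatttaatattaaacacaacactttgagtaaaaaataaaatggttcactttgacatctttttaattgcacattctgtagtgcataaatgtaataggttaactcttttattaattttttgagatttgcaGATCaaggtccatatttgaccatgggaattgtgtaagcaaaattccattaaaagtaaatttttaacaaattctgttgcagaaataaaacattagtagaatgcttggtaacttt
Each of the 4 holds 1 GATC. The stretches before *Slc22a28* and *Slc22a30* were 93.0% identical (238 of 256 aligned positions), those before *Slc22a19* and *Slc22a28* 60.4%, and those before *Slc22a19* and *Slc22a26* 52.2%. The *Slc22a19* promoter was in a LAD of both genotypes and the *Slc22a26* promoter in a WT LAD only, whereas those of the near-identical pair *Slc22a28* and *Slc22a30* were in no LAD of either genotype. Among all 9 promoters of 300 bases, those of *Slc22a8* and *Slc22a6* held no GATC and the other 7 held 1 or more. GATC, which reads the same on both strands, was found in 48.0% of 32851 RefSeq promoters of this length.

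Each gene was classed by an overlap of its span with a DR of at least 1 base. PI genes overlapped a WT-only DR (periphery in WT, interior in KO), IP genes a KO-only DR, and ambiguous (AMB) genes both. Of the rest, PP genes had a LAD in both genotypes and II genes were the remainder. Of the 9 members, 4 were PI (*Slc22a26*, *Slc22a27*, *Slc22a28* and *Slc22a30*), 1 was PP (*Slc22a19*), 4 were II (*Slc22a20*, *Slc22a12*, *Slc22a8* and *Slc22a6*), and 0 were IP or AMB. Over all protein-coding genes, 5.43% were PI, 17.1% IP, 2.96% AMB, 17.9% PP and 56.6% II. On chromosome 19 alone, 14.9% were PI, 4.70% IP, 1.66% AMB, 5.66% PP and 73.1% II. The 4 PI members lie in 1 stretch of the chromosome, with *Slc22a29* between *Slc22a28* and *Slc22a30*, and were measured in the same libraries. None shares a WT LAD or DR with another of the 4, but the WT LAD of *Slc22a26* also overlaps *Slc22a19*. When DRs had to cover 50% of a span or more, only *Slc22a26* and *Slc22a28* were PI, and by the transcription start alone only *Slc22a26* was. *Slc22a26* itself became PP when LADs were joined across gaps of up to 50 kb. The shares over all genes and over chromosome 19 were computed only for an overlap of at least 1 base. The counts under these other settings therefore have no share to be read against.

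Summed over the 9 members, 61.0% of 355 kb lay in WT LADs and 21.0% in KO LADs. KO LADs left out 69.5% of the WT LAD bases of the members, and WT LADs left out 11.5% of their KO LAD bases. These KO LAD bases outside WT LADs, 8.59 kb, all lay in *Slc22a19*. Over the 724 genes of chromosome 19 the shares of the span were 27.6% in WT and 13.3% in KO. There 63.7% of the WT LAD bases lay outside KO LADs, and 24.4% of the KO LAD bases outside WT LADs. Over all protein-coding genes the shares of the span were 38.3% and 42.3%. For all genes, 15.2% of the WT LAD bases lay outside KO LADs, and 23.1% of the KO LAD bases outside WT LADs. Summed over bases, the members thus held more LAD sequence than the chromosome's genes in both genotypes. In KO all of it lay in *Slc22a27* (48.5 kb) and *Slc22a19* (26.2 kb). The median KO share was 0% for the members and also for the genes of chromosome 19. The part of the WT sequence outside KO LADs was 69.5% against 63.7%.

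**Figure D2:**
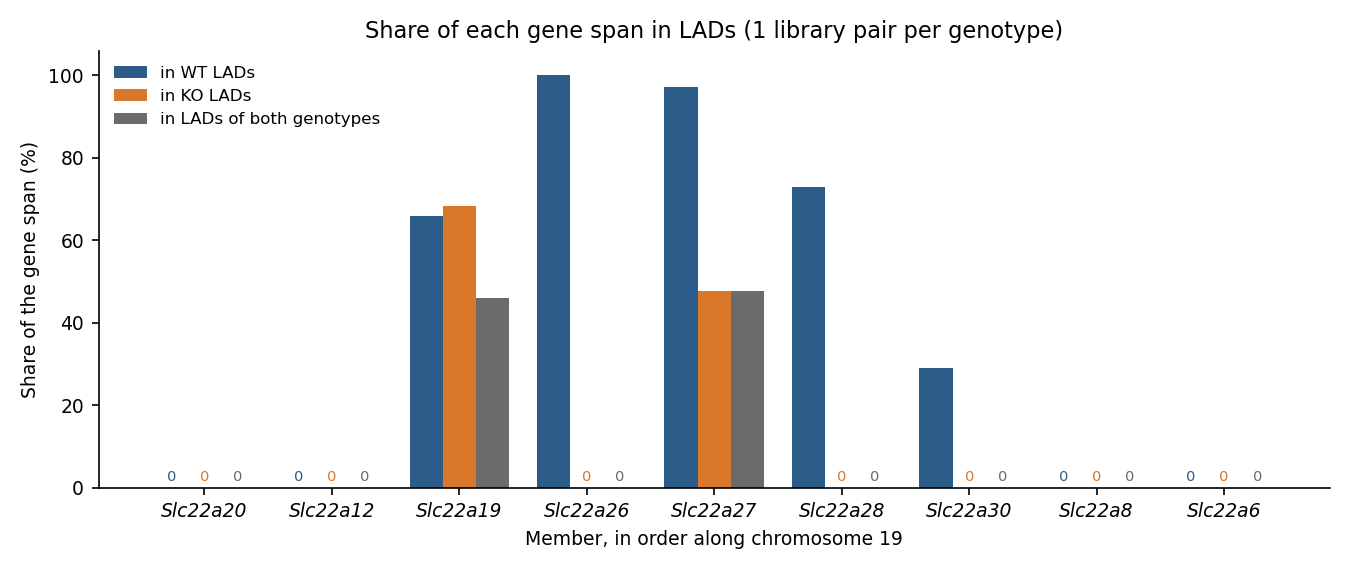
Bars give the percent of each gene inside WT LADs, inside KO LADs and inside LADs of both genotypes, for the 9 members in chromosome order; a 0 marks an empty bar and there are no error bars, because each genotype is 1 library pair. *Slc22a26*, *Slc22a28* and *Slc22a30* have WT bars of 100%, 72.9% and 29.0% and no KO bar, whereas *Slc22a19* has bars of 66.0% and 68.4%.

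Of the 9 members, *Slc22a6*, *Slc22a8*, *Slc22a12* and *Slc22a20* carried no LAD. *Slc22a6* (OAT1) and *Slc22a8* (OAT3) encode the main uptake carriers for organic anions on the blood side of the kidney tubule. *Slc22a6*, chr19:8692486-8702789, and *Slc22a8*, chr19:8665744-8686324, had 0% of their spans in LADs of either genotype. From the transcription start of *Slc22a6* the closest WT LAD was at 108 kb and the closest KO LAD at 364 kb. From that of *Slc22a8* these distances were 81.5 and 337 kb. Both genes were therefore closer to a LAD in WT than in KO, although their class was II. *Slc22a12* encodes URAT1, the urate transporter that returns urate from the tubule. Its nearest LAD was 1155 kb from the start in WT and 1164 kb in KO. *Slc22a20* encodes OAT6, a transporter of the olfactory mucosa. Its start was 1712 kb from the nearest LAD in WT and 830 kb in KO. Of these 4 genes it was the only one with a nearer LAD in KO. None of the 10, 10, 12 and 10 exons of *Slc22a20*, *Slc22a12*, *Slc22a8* and *Slc22a6* was in a LAD.

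*Slc22a19*, which encodes OAT5, was the only PP member. It lies at chr19:7747551-7785800, a span of 38.2 kb, and was overlapped by 2 LADs in each genotype. WT LADs covered 66.0% of the span and KO LADs 68.4%, but only 46.0% was covered in both. The gap between the LADs ran from intron 3 to intron 2 in WT (7767532 to 7780542) and from intron 5 to intron 2 in KO (7759872 to 7771956). The gap thus sat nearer to the 3′ end of the gene in KO. Of its 10 exons, 7 were in LADs of both genotypes, 2 (exons 4 and 5) in a WT LAD only, and 1 (exon 3) in neither. Its transcription start was in a LAD in both. No stretch that differed within the gene was long enough for the deposited DRs, which are at least 10 kb. With differences of any length counted, the gene became AMB.

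*Slc22a26*, one of the rodent transporters of this cluster, was the member whose whole span differed. It lies at chr19:7855531-7877157, a span of 21.6 kb, wholly inside a single WT LAD of 144 kb. No KO LAD overlapped it. Its 10 exons and its transcription start were all in the WT LAD only. The DR was 36.5 kb long (chr19:7848733-7885271) and lay inside that WT LAD, with KO LAD on both of its sides. The flanking KO LADs lay 6.80 kb past its 3′ end and 8.12 kb before its start.

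*Slc22a27* kept LADs in KO over part of its span, mostly toward the 3′ end. The gene spans 102 kb (chr19:7938881-8040517), of which 97.1% was in 1 WT LAD and 47.7% in 2 KO LADs that lay wholly within it. A DR of 39.4 kb (chr19:7998144-8037522) took 38.7% of the span, from intron 3 to intron 1. Of 11 exons, 6 (exons 4 to 9) were in LADs of both genotypes. Exons 2, 3, 10 and 11 were in the WT LAD only, and exon 1, which is untranslated, was in no LAD. The transcription start was 3.0 kb from a LAD in WT and 40.0 kb in KO.

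*Slc22a28* had its 3′ part in a WT LAD. The gene spans 69.8 kb (chr19:8136699-8206472), with 72.9% in a WT LAD and no KO LAD. The WT LAD ended in intron 4 at 8187576. Exons 5 to 10 were in it, and exons 1 to 4 and the transcription start were in no LAD of either genotype. From the start, the distance was 6.35 kb to a WT LAD and 4.16 kb to a KO LAD. The DR over the gene was 53.8 kb long and reached 2.92 kb past its 3′ end, where a KO LAD ended.

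*Slc22a30*, whose coding sequence is nearly that of *Slc22a28*, had a smaller part in LADs. The gene spans 69.7 kb (chr19:8409861-8479601), with 29.0% in 2 WT LADs and no KO LAD. The first WT LAD, of 73.4 kb, reached its 3′ end, and the other, of 14.4 kb, lay wholly in intron 5. Its start was 2.79 kb from a LAD in WT and 151 kb in KO. The exon count depends on the transcript. The 8 exons of the transcript with the most exonic bases, which ends early, were in no LAD. In the transcript with the longest coding sequence, which was looked up after the values were seen, exons 8 to 10 of 10 were in the WT LAD. By the transcript with the longest coding sequence, both members of this near-identical pair had exons of their 3′ part in WT LADs only. These were exons 5 to 10 in *Slc22a28* and exons 8 to 10 in *Slc22a30*. By the transcript with the most exonic bases, only *Slc22a28* had such exons.

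**Figure D3:**
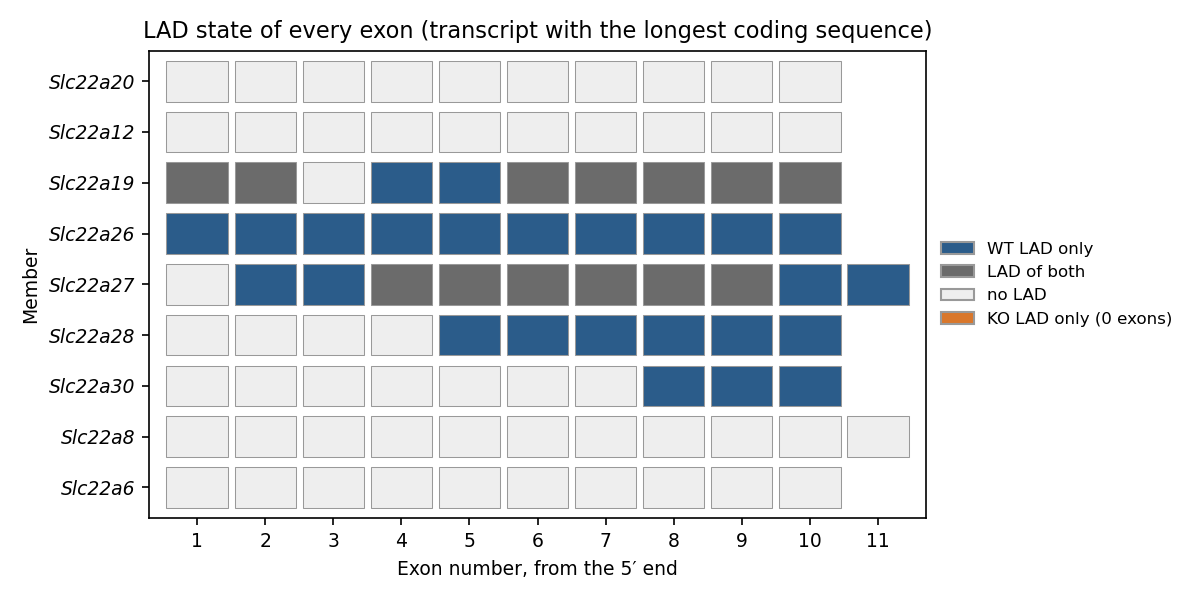
Each square is 1 exon, numbered from the 5′ end, of the transcript with the longest coding sequence; the color gives its LAD state, with an overlap of at least 1 base. Of 92 exons, 25 are in a WT LAD only, 13 in LADs of both genotypes, 54 in no LAD and 0 in a KO LAD only.

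Counted on the transcripts with the most exonic bases, the 9 members had 91 exons. LADs of WT only held 22, LADs of both genotypes 13, LADs of KO only 0, and 56 were in neither. Of the 22, 10 were the exons of *Slc22a26*, which lies in 1 DR. The same counts over the exons of other genes were not made. KO-only DRs were also the fewer on chromosome 19, 92 against 370 WT-only DRs. Of the 5 members with a LAD, only *Slc22a19* and *Slc22a26* had their transcription start in one. The starts of *Slc22a27*, *Slc22a28* and *Slc22a30* were between 2.79 and 6.35 kb from a WT LAD.

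LAD borders sit at the sites that DamID can read. All 484 WT and 808 KO borders of chromosome 19 fell at a GATC, among them the 46 in the block and the 100 kb before it. Shown are some of the borders within *Slc22a27*, *Slc22a28* and *Slc22a30*, and those of a KO LAD that lies between genes. Each is given as 30 bases of the mm9 plus strand, with the GATC at the border in capitals. The most alike and second most alike pairs among the 46 borders are included, so the borders shown do not stand for the rest.
WT LAD end in Slc22a27 intron 1: agtactgacaattGATCtttgacaaagaag
KO LAD end in Slc22a27 intron 3: gccaggatgtcgaGATCggcccagaaaaaa
WT LAD end in Slc22a28 intron 4: cgctagacaggtaGATCaatggaatagaat
WT LAD start in Slc22a30 intron 5: agacaggcaggtaGATCaatggaagagttg
start of the KO LAD before Slc22a28: tttctgtttccatGATCtgaccattgatga
end of the KO LAD before Slc22a28: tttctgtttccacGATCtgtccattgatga
The *Slc22a27* pair, at chr19:8037507-8037536 and chr19:7998128-7998157, bounds the DR of that gene. The border in *Slc22a28* (chr19:8187561-8187590) and the first one in intron 5 of *Slc22a30* (chr19:8428924-8428953) are identical at 22 of 30 positions, the second most alike of all pairs among the 46 borders. The last pair, at chr19:8122914-8122943 and chr19:8133761-8133790, bounds a KO LAD of 10.8 kb between *Slc22a27* and *Slc22a28*. Its borders are identical at 28 of 30 positions, against 7 to 15 for the ends of the other 22 LADs. Over these 30 bases its start and end are thus near copies. All borders were aligned on their GATC, so the positions of the GATC are identical in every pair by construction.

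The block was then followed from end to end, together with the DNA between the genes. WT LADs covered 66.3% of it and KO LADs 27.9%, with 11 LADs in each genotype. Both covered 230 kb, WT alone 404 kb, KO alone 37.0 kb, and neither 285 kb. The block held 11 PI DRs, with a median length of 33.7 kb, and 1 IP DR. On chromosome 19 as a whole there were 370 PI DRs, with a median of 28.0 kb, and 92 IP DRs.

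For description, the block was divided at the end of its last KO LAD and at the end of its last WT LAD, which fixes that the middle part has no KO LAD and the last part no LAD. In the first 581 kb, from *Slc22a19* to the last KO LAD, which overlaps *Slc22a29*, WT LADs covered 80.3% and KO LADs 45.9%, and 50.8% of the WT LAD bases were outside KO LADs. The next 255 kb, which hold *Slc22a30*, had 5 WT LADs over 65.4% of the bases and no KO LAD. These 5 WT LADs were whole LADs with no KO counterpart, and the longest of them was also the longest PI DR of the block, 43rd in length of the 370 on the chromosome. The last 119 kb, which hold *Slc22a8* and *Slc22a6*, had no LAD in either genotype. Past the block the next WT LAD began after 521 kb and the next KO LAD after 519 kb.

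**Figure D4:**
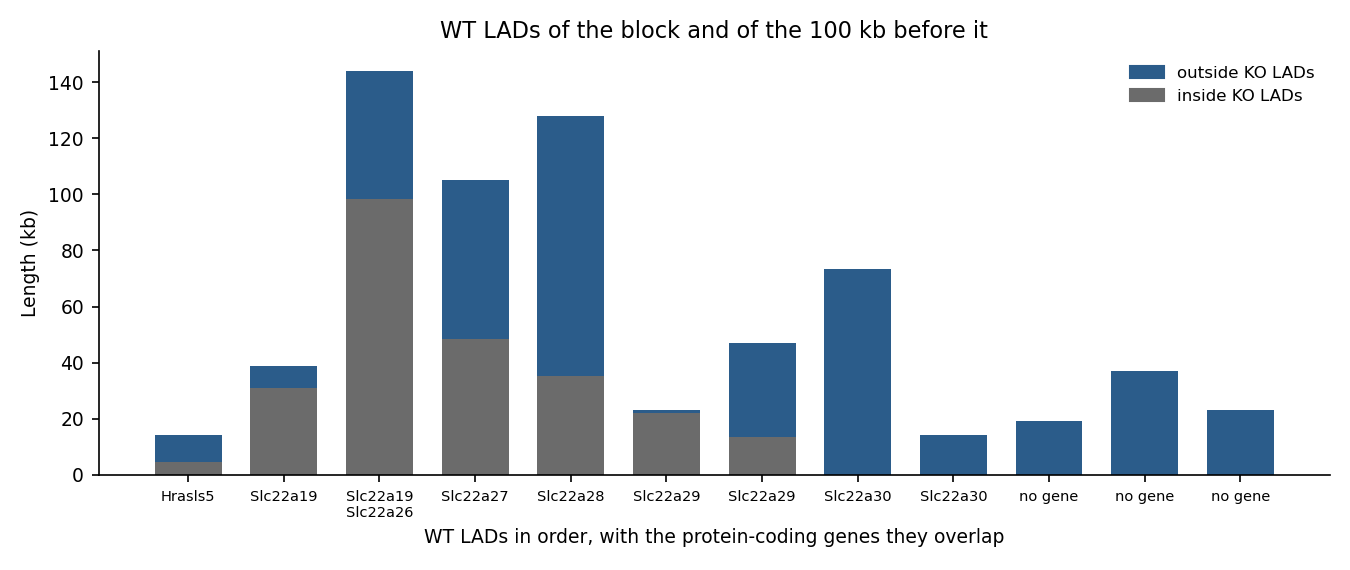
Each bar is 1 of the 12 WT LADs of the block and the 100 kb before it, in order, with its length in kb split into the stretch inside KO LADs (gray) and outside them (blue). The last 5 bars are blue throughout, whereas in the first 7 the blue share runs from 4.37% to 72.5%.

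Single WT LADs were divided in different ways. The WT LAD of 144 kb over *Slc22a19* and *Slc22a26* was overlapped by 3 KO LADs, which held 68.4% of it. The LAD of 105 kb over *Slc22a27* had 46.2% in 2 KO LADs. The LAD of 128 kb over *Slc22a28* had 27.5% in 2 KO LADs, neither of which touched the gene. At *Slc22a30* both LADs, of 73.4 and 14.4 kb, had 0% in KO LADs.

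Sequence that occurs more than once limits where short reads can be placed, so it was measured beside these values. Of all windows of 50 bases in the block, 23.8% occurred again on chromosome 19, against 5.57% over the whole chromosome. The share was 24.0% in bases of WT LADs only, 31.6% in LADs of both, 14.2% in KO LADs only and 18.6% in neither. By member it was 4.88% in *Slc22a26*, 15.6% in *Slc22a19*, 27.5% in *Slc22a27*, 30.8% in *Slc22a28* and 32.8% in *Slc22a30*. It was at most 4.98% in the 4 members without a LAD. Among the PI members, *Slc22a26* was thus near the share of the whole chromosome, while *Slc22a27*, *Slc22a28* and *Slc22a30* had the highest shares of the 9 members. Only exact copies on chromosome 19 were counted, so sequence repeated on other chromosomes is not in these shares. GATC sites were spaced 326 bases apart on average in the block and 406 on the chromosome, and the GC share was 40.7% and 42.7%. The part of repeated sequence in the LAD calls was not tested.

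The other genes of the family and the neighbors give the setting. The annotation holds 16 further *Slc22* genes, of which 2 were PI, 3 IP, 1 AMB, 0 PP and 10 II. The 1 AMB gene was *Slc22a29*, the only other one on chromosome 19. It lies in the block between *Slc22a28* and *Slc22a30* (chr19:8234655-8337108), with 47.2% of its 102 kb in WT LADs and 38.9% in KO LADs. A PI DR took 32.9% and the IP DR of the block 19.9%. Its coding sequence was 97.3% identical to that of *Slc22a27*. Of the 15 genes on other chromosomes, *Slc22a2* (OCT2, an organic cation transporter) had WT LADs over 37.1% of its span and no KO LAD. *Slc22a22* had 100% in WT and 93.8% in KO. The IP genes were *Slc22a17*, with 0% in WT and 100% in KO, *Slc22a3* (OCT3), with 30.7% and 47.4%, and *Slc22a16*, with 0% and 0.692%.

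Next to the block, *Hrasls5* on the side of *Slc22a19* was IP, with WT LADs over 52.1% of its span, KO LADs over 25.4% and a KO-only DR over 8.07%. *Chrm1*, the first gene past *Slc22a6*, was II. Around the single members, *Pola2* and *Capn1* beside *Slc22a20*, and *Rasgrp2*, *Nrxn2* and *Rps6ka4* beside *Slc22a12*, were all II with no LAD. *Slc22a12* lies within the span of *Nrxn2*, which is on the other strand.

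Genes of chromosome 19 with shares near the block medians were sought among 714 genes outside the family. The measure was the summed absolute difference of the WT and KO shares from the medians of the 7 block members (66.0% in WT and 0% in KO). These medians come from different genes and describe no single member. The WT median is that of *Slc22a19*, which had 68.4% in KO. *Cyp2c69* was nearest, at 3.09 percentage points, with 69.1% in WT and 0% in KO. *Rfx3* followed at 4.37 points (65.3% and 3.64%) and *Cyp2c68* at 5.12 points (60.9% and 0%). *Cyp2c69* and *Cyp2c68* belong to a cytochrome P450 subfamily and *Rfx3* encodes a transcription factor. For *Slc22a20* and *Slc22a12*, with 0% in both, 521 genes were tied.

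**Figure D5:**
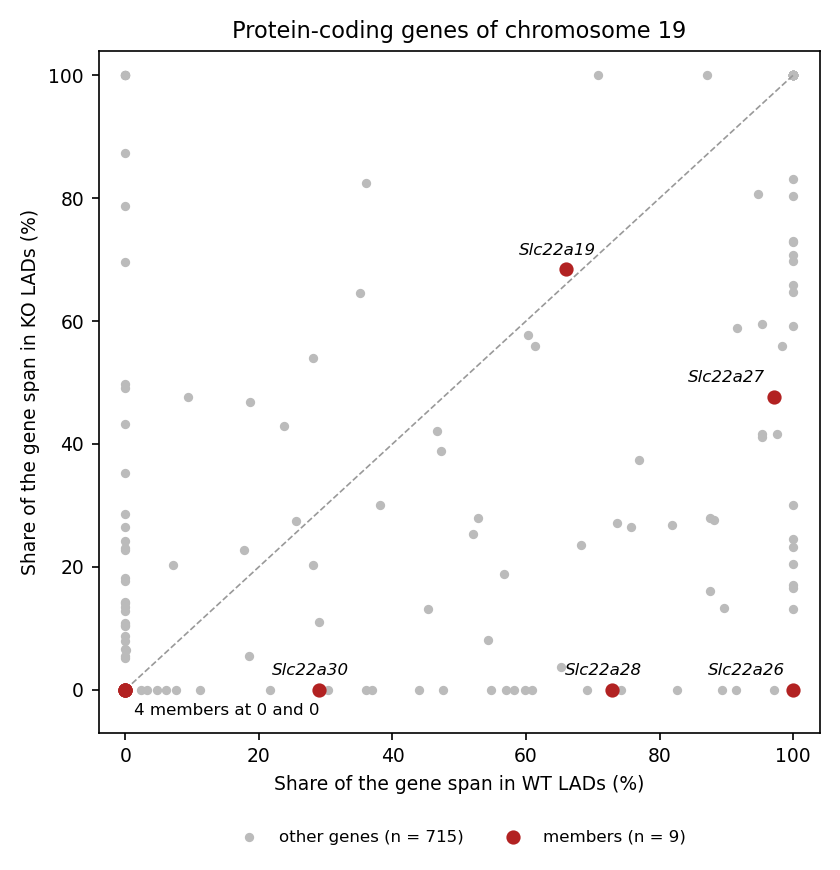
Each point is a protein-coding gene of chromosome 19, with the percent of its span inside WT LADs on the horizontal axis and inside KO LADs on the vertical axis; the 9 members are red, the other 715 genes gray, and the dashed line marks equal shares. Of the 5 members with a LAD, 4 lie below the line and *Slc22a19* lies just above it.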

How the data were processed

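Dam-LaminB1 and Dam-only DNA of WT and *Tm7sf2*-KO hepatocytes was sequenced in 4 libraries, grouped by their labels. The authors mapped reads to mm9, took log2(Dam-LaminB1/Dam) per *DpnI* fragment and segmented it with DNAcopy at default settings. The submitters' processing notes name BWA and limma. The deposited files used here are 2 LAD and 2 DR lists, which give positions with no score or other measured value. DRs are the stretches of 1 LAD list outside the other of at least 10 kb, and repeating the subtraction returned all 7787 WT-only and 8208 KO-only DRs.

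Genes and exons came from the NCBIM37 (mm9) annotation, with the protein-coding transcript of the most exonic bases. Members within 500 kb formed a block. Covered bases, classes and distances were computed with Python 3.11.15 and numpy 2.4.6, and alignments (match 1, mismatch -1, gap -3 and -1) with Biopython 1.88. Positions are 1-based. Borders are uncertain by 1 base. The interval steps, tested on simulated data, gave 0 errors.

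The members and lists were chosen with earlier results of these data known. The named genes were all members, the rest of the family, the block neighbors and the 3 genes nearest the block medians. No test was made.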

Additional observations from a re-analysis of the deposited data

How the results depend on the processing

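Of 94 values under another setting, 58 stayed and 36 moved. Counts stayed if within 1.5 times. Shares stayed if within a 95% Wilson interval over the GATC sites of the span, and single-member differences if within a margin from such an interval. It treats GATC sites as independent, although neighboring sites share a LAD call. It serves as a yardstick only and measures no spread between animals or libraries. A reversal could be recorded only for the KO minus WT share of single PI members, where 0 reversed. PI members numbered 2, against 4, when DRs had to cover 50% of a span or more, and 1 (*Slc22a26*) by the transcription start. PP members numbered 2 when 50% was asked for, 2 with LADs joined across gaps of up to 50 kb, and 0 with the 100 kb centered on each gene (then 1 IP, *Slc22a19*) or with differences of any length (then 1 AMB). II members numbered 7 by the start. The shares of all genes in each class were not computed under these settings.

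With LADs of at least 20 kb, the members' WT share was 57.0%, their KO share 15.5% and the WT share outside KO 77.1%. With joined LADs these were 84.8%, 33.6% and 60.4%, and the KO share outside WT 0%. With 10 kb added on each side, the WT share was 54.9% and the WT share outside KO 65.3%. The block's WT and KO shares were 62.8% and 22.7% with LADs of at least 20 kb, and 87.6% and 44.2% with joined LADs. The WT share was 57.7% with 100 kb added on each side. Split at gaps of 200 kb, the block gave 86.4% and 44.2% from *Slc22a19* to *Slc22a28*, and 33.9% and 0% from *Slc22a30* to *Slc22a6*. Joining filled the KO gap over *Slc22a26*, which became PP. Longer spans, fewer LADs and joined LADs change these values by construction.

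No paired analysis was possible because each genotype is 1 library pair, and for the same reason leaving out a replicate was not run. The lists hold no read numbers, and a LAD or DR under 10 kb is outside what they show.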
